A study of Mus musculus with 12 samples.

Results

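Genes that mark resident macrophages of the bone marrow were followed across RNA libraries of marrow cells from mice with cardiovascular disease. The 10 genes, all matched by symbol to a row of the 55421 genes in the count table, were the 3 chains of complement C1q (*C1qa*, *C1qb*, *C1qc*), *Vsig4*, *Cd5l*, *Cd163*, *Siglec1*, *Adgre1*, *Axl* and *Mertk*. They were chosen for their levels by group in these same 12 libraries, so the differences of these genes between groups are a description and carry no test. All 10 passed the filter on low counts and were among the 15999 genes tested.

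The study asked how cardiovascular disease changes endothelial cells of the marrow niche. Controls were 3 naive C57BL/6J mice (control). Hypertensive mice (HTN) were 3 C57BL/6J mice given the blood pressure-raising peptide angiotensin II over a long period. Atherosclerotic mice (Apoe-/-) were 3 mice homozygous for the Apoe(tm1Unc) knockout, which per the study's methods ate a western diet, so that genotype and diet cannot be told apart. MI mice were 3 C57BL/6J mice with acute myocardial infarction, labelled as day 2 after infarction, while the study's text names a later day, and no sham-operated group was included. All mice were 20 weeks old, each mouse gave 1 library, and the same 3 controls served in every comparison. Cells were depleted of lineage-positive cells and then sorted as negative for TER-119, CD41 and CD45, high for CD31 and positive for SCA-1.

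Macrophages that live in the marrow sit at the center of erythroblastic islands, take up the nuclei that maturing red cells expel, and clear dying cells, aged neutrophils and hemoglobin. They mark targets for uptake with C1q, bind complement fragments with VSIG4, take up hemoglobin bound to haptoglobin with CD163, hold on to sialylated cells with SIGLEC1, and recognize dying cells through the receptor tyrosine kinases AXL and MERTK. Expression of *Cd5l* and *Mertk* in macrophages is known to respond to liver X receptors, which sense oxidized cholesterol.

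Total counts were between 17007088 and 25136936 per library. *Apoe* was at 7.28 to 14.8 CPM (counts scaled to library size, with TMM scaling between libraries) in Apoe-/- mice and at 450.5 to 1503 CPM in all other libraries, as the labels require. Genes of cells that this gate should remove were abundant. *Ptprc*, the gene of CD45, was at 463 to 814 CPM, whereas the endothelial genes *Cdh5* and *Pecam1* were at 2.00 to 4.19 and 17.2 to 31.8 CPM. A list of 14 neutrophil genes summed to 34404 to 99663 CPM against 189 to 341 CPM for 20 endothelial genes. Which cells of this mixture gave the reads of the macrophage genes below was not tested. More macrophages in a library and more RNA per macrophage cannot be told apart either.

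The upstream sequence of 3 members is shown, of *Vsig4* and *Cd5l* because their levels differed most between groups, and of *C1qc* because it held the only match to a motif listed for the search. RefSeq gave a window of 250 bases before and 50 bases after the start for 7 of the 10 genes (*C1qb*, *C1qc*, *Vsig4*, *Cd5l*, *Cd163*, *Axl* and *Mertk*) in build GRCm38.p6, and *C1qa*, *Siglec1* and *Adgre1* were not matched. The stretches cover chrX:96293439-96293688 on the minus strand for *Vsig4*, chr3:87357631-87357880 on the plus strand for *Cd5l*, and, for *C1qc*, the 99 bases at chr4:136893066-136893164 on the minus strand that lie outside the annotated gene. They run 5′ to 3′ on the strand of the gene, and capitals mark motif matches.
Vsig4: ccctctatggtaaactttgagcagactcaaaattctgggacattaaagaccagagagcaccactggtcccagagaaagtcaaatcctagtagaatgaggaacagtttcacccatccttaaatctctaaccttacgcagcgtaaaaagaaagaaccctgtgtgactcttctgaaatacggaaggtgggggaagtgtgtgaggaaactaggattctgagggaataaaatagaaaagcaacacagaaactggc
Cd5l: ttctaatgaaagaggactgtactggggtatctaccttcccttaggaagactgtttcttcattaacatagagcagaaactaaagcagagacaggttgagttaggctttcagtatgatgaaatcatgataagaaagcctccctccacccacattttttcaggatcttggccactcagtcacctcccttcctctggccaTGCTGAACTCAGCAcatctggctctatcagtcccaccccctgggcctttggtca
C1qc: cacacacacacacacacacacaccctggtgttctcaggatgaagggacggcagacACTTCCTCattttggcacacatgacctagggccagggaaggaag

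Both strands of each window were searched for 4 motifs. The core of a site for PU.1, a myeloid transcription factor, GAGGAAGT, occurred in 3.20% of 32851 windows of this length and in 1 of the 7 of these genes. It lay in *C1qc* on the opposite strand, at bases -195 to -188 from the RefSeq start, which lies inside the annotated gene. A partial Maf recognition element (TGCTGAC) was in 4.67% of all windows, the core of the interferon-stimulated response element in 3.44%, and a DR4 element of liver X receptors in 0.0152%, each with 0 matches in the 7 windows. In *Cd5l* the letters TGCTGAACTCAGCA at bases -54 to -41 match a palindrome that resembles a full Maf recognition element, which was found in 2 of the 32851 windows. This palindrome was chosen after the letters of the *Cd5l* window had been seen, and it does not overlap another motif searched.

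*C1qa*, *C1qb* and *C1qc* encode the A, B and C chains that assemble into C1q, the recognition unit of the classical complement pathway. They lie side by side on the minus strand of chromosome 4, at 136895917 to 136898803, 136880129 to 136886187 and 136889804 to 136893065. *C1qa* was at 36.0, 27.3 and 28.6 CPM in control replicates 2, 3 and 4, at 46.2, 32.9 and 39.1 in HTN, at 60.1, 62.7 and 57.7 in Apoe-/- and at 32.5, 33.7 and 28.2 in MI. The 3 Apoe-/- libraries lay above the 9 other libraries, and the other groups overlapped with controls. The mean was 30.7 ± 4.72 (SD, n = 3) in controls and 60.2 ± 2.54 in Apoe-/- mice, a log2 fold change of 0.97 ± 0.16 (SE).

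*C1qb* was at 132, 98.7 and 118 CPM in controls, at 166, 114 and 88.0 in HTN, at 147, 253 and 199.5 in Apoe-/- and at 142, 124 and 89.8 in MI. Apoe-/- libraries did not overlap with controls, but the lowest of them was below the highest HTN library. *C1qc* was at 150, 140 and 148 CPM in controls, at 263, 195 and 199 in HTN, at 279, 273 and 196 in Apoe-/- and at 129, 187 and 141 in MI. Here HTN and Apoe-/- libraries were all above the controls and overlapped with each other, and MI libraries spanned the controls. The log2 fold changes in Apoe-/- mice were 0.78 ± 0.26 for *C1qb* and 0.77 ± 0.19 for *C1qc*, and in HTN they were 0.08 ± 0.26 and 0.59 ± 0.19.

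The 3 chains together amounted to 293 ± 26.3 CPM in controls, 381 ± 82.4 in HTN, 509 ± 70.5 in Apoe-/- and 302 ± 42.7 in MI (SD, n = 3). Per kb of exon, the B chain made up 36.5 to 57.0% of the C1q signal over the 12 libraries, the C chain 29.3 to 46.5% and the A chain 12.95 to 17.1%. The share of the A chain was 13.9% ± 0.932 in controls and 15.8% ± 1.68 in Apoe-/- mice, and the groups overlapped. The share of the C chain was 43.3% ± 2.91 in HTN, above all 3 controls, which held 35.8% ± 2.53. It was 29.9 to 42.9% in Apoe-/- mice, overlapping with HTN, and 29.3 to 40.0% in MI. Both of these groups also overlapped with controls.

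*Vsig4* encodes a receptor for the complement fragments C3b and iC3b that tissue macrophages use to capture opsonized particles (chromosome X, 96247203 to 96293438, minus strand). It was the rarest of the genes in controls and the one with the largest difference. Control replicates 2, 3 and 4 held 1, 4 and 11 counts, HTN libraries 21, 10 and 6, Apoe-/- libraries 140, 239 and 46, and MI libraries 17, 17 and 15. These counts correspond to 0.0561, 0.217 and 0.427 CPM in controls, 0.953, 0.438 and 0.300 in HTN, 6.23, 14.0 and 2.34 in Apoe-/-, and 0.939, 0.900 and 0.869 in MI. All Apoe-/- libraries were above the other 9, MI libraries were above controls and close to each other, and HTN overlapped with controls.

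Summed over 3 libraries, *Vsig4* had 16 counts in controls and 425 in Apoe-/- mice, a ratio of 27.9 after scaling. For HTN the 37 counts gave a ratio of 2.21, and for MI the 49 counts gave 3.50. These ratios pool the reads of 3 mice, so they do not show the spread between mice. That spread was wide in Apoe-/- mice, with a mean of 7.54 ± 5.96 CPM (SD, n = 3). The fitted log2 fold change was 4.89 ± 0.71 (SE) in Apoe-/- (4.08 without Apoe-/- replicate 3 and 5.72 without control replicate 4), 1.17 ± 0.76 in HTN (0.57 without HTN replicate 2 and 2.00 without control replicate 4) and 1.84 ± 0.75 in MI (1.43 without control replicate 2 and 2.67 without control replicate 4), each against a control level near the limit of detection of 3 counts, or 0.116 to 0.176 CPM.

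*Cd5l* encodes a secreted protein of the scavenger receptor cysteine-rich family, also known as AIM, that macrophages release (chromosome 3, 87357881 to 87371073, plus strand). It was at 11.5, 8.12 and 15.55 CPM in control replicates 2, 3 and 4, at 24.9, 16.6 and 15.57 in HTN, at 43.2, 71.5 and 49.8 in Apoe-/- and at 27.4, 19.7 and 12.7 in MI. Apoe-/- libraries were above all others. The lowest HTN library was only just above the highest control, and MI overlapped with controls. The log2 fold change was 2.22 ± 0.32 in Apoe-/-, a 4.65-fold higher level, 0.69 ± 0.31 in HTN and 0.76 ± 0.31 in MI.

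*Cd163*, the scavenger receptor for hemoglobin bound to haptoglobin (chromosome 6, 124304656 to 124330527, plus strand), overlapped between all groups. It was at 8.46, 6.82 and 10.7 CPM in controls, at 14.7, 9.20 and 9.16 in HTN, at 17.0, 16.4 and 8.91 in Apoe-/- and at 16.7, 10.5 and 8.92 in MI. Of the Apoe-/- libraries, 2 were above the controls and 1 lay within their range. The log2 fold change was 0.70 ± 0.31 in Apoe-/-, 0.34 ± 0.31 in HTN and 0.47 ± 0.31 in MI.

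*Siglec1* encodes sialoadhesin, or CD169, a lectin that binds sialic acid on other cells (chromosome 2, 131069220 to 131086765, minus strand). It was at 1.68, 0.975 and 2.13 CPM in controls, at 2.41, 1.31 and 1.80 in HTN, at 4.98, 3.35 and 3.41 in Apoe-/- and at 1.55, 1.48 and 1.39 in MI. Apoe-/- libraries were above the other 9, which overlapped. The log2 fold change was 1.28 ± 0.33 in Apoe-/-, 0.19 ± 0.34 in HTN and -0.13 ± 0.34 in MI.

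*Adgre1*, the gene of the F4/80 antigen that defines mouse macrophages in flow cytometry (chromosome 17, 57358691 to 57483527, plus strand), did not follow the other genes. It was at 43.7, 65.1 and 77.0 CPM in controls, at 58.9, 61.6 and 41.7 in HTN, at 44.8, 65.7 and 103 in Apoe-/- and at 60.2, 54.6 and 46.6 in MI. All groups overlapped with controls, and the log2 fold change was 0.20 ± 0.28 in Apoe-/- and -0.20 ± 0.28 in both HTN and MI. Set against *Adgre1* in the same library, *Cd5l* stood at 19.7 ± 6.98 per 100 of *Adgre1* CPM in controls and at 84.5 ± 32.1 in Apoe-/- mice. *Vsig4* stood at 0.338 ± 0.213 and 12.5 ± 9.63, with no overlap between controls and Apoe-/- mice for either gene. The HTN and MI libraries were also all above the controls for both ratios, and all below the Apoe-/- libraries. *Cd5l* stood at 35.5 ± 7.79 in HTN and 36.3 ± 9.15 in MI, and *Vsig4* at 1.02 ± 0.521 and 1.69 ± 0.156. *C1qa* relative to *Adgre1* did overlap, at 37.2 to 82.4 in controls and 55.8 to 134 in Apoe-/- mice.

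*Axl* and *Mertk* encode receptor tyrosine kinases of the TAM family, which bind dying cells through the bridging proteins GAS6 and protein S. *Axl* was at 36.3, 38.8 and 47.7 CPM in controls, at 71.9, 47.9 and 48.1 in HTN, at 56.6, 68.9 and 90.1 in Apoe-/- and at 41.7, 45.6 and 31.2 in MI. Apoe-/- and HTN libraries were above the controls, HTN by a small margin, and MI overlapped. The log2 fold change was 0.81 ± 0.22 in Apoe-/-, 0.45 ± 0.22 in HTN and -0.05 ± 0.22 in MI. *Axl* lies on chromosome 7 (25757273 to 25788705, minus strand), 6.06 Mb from *Apoe*, the targeted gene, and the part of this position in its level in Apoe-/- mice was not tested.

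*Mertk* was at 7.85, 7.64 and 7.68 CPM in controls, at 12.98, 7.75 and 8.31 in HTN, at 14.1, 14.0 and 11.9 in Apoe-/- and at 14.0, 8.47 and 5.33 in MI. The controls had an SD of 0.112 CPM, Apoe-/- libraries were all higher, and MI spread to both sides of the controls. The log2 fold change was 0.79 ± 0.30 in Apoe-/-, 0.33 ± 0.30 in HTN and 0.26 ± 0.30 in MI. *Mertk* (chromosome 2, 128698956 to 128802894, plus strand) overlaps *Gm23172* on its own strand and *Gm14011* on the other, so reads in the shared parts may have been assigned to neither or to another gene. The ligand genes overlapped between groups. *Gas6* was at 24.1 ± 8.62 CPM in controls and 18.9 ± 5.17 in Apoe-/- mice, and *Pros1*, which encodes protein S, at 34.4 ± 5.33 and 41.9 ± 13.9, with overlap in HTN and MI as well. *Tyro3*, the remaining TAM receptor, was too rare to be tested, at 0 to 0.407 CPM over all libraries.

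**Figure D1:**
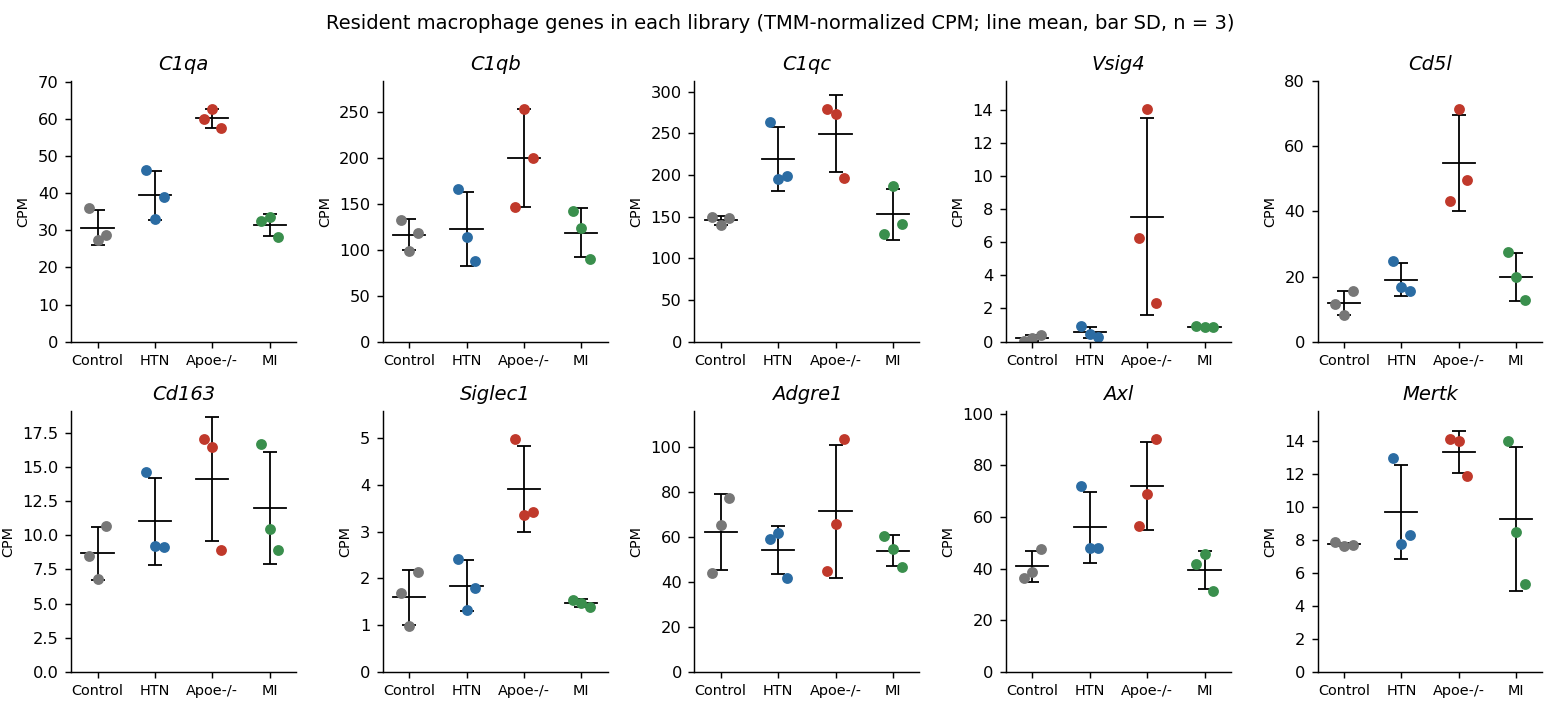
CPM (vertical axis, linear from 0, a scale for each gene) of the 10 genes in the 12 libraries, by group; points are libraries in the order of replicates 2, 3 and 4, lines are means and bars are SD (n = 3). Apoe-/- libraries lie above all 9 others for *C1qa*, *Vsig4*, *Cd5l* and *Siglec1*, whereas *Adgre1* overlaps in all groups. The genes were chosen on these levels, and the share of all genes with this separation was not counted.

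Per kb of exon, which allows levels to be compared between genes, the 10 genes spanned nearly the whole range of the libraries. In controls, *C1qb* was at 107 ± 15.5 CPM per kb (SD, n = 3), above 97.0% of 15992 genes ranked, followed by *C1qc* at 75.5 ± 2.80, *C1qa* at 29.5 ± 4.53 and *Adgre1* at 19.1 ± 5.21. *Axl* at 8.13 ± 1.19 and *Cd5l* at 5.77 ± 1.83 overlapped between libraries, as did *Mertk* at 1.78 ± 0.0259 and *Cd163* at 1.59 ± 0.357. *Siglec1* at 0.224 ± 0.0818 and *Vsig4* at 0.157 ± 0.125 overlapped at the lower end, above 8.53% and 5.47% of genes. The other neighbors in this order did not overlap. In Apoe-/- mice, *Vsig4* reached 5.08 ± 4.01 CPM per kb and *Siglec1* 0.548 ± 0.130, and *Cd5l*, at 26.9 ± 7.26, reached the level of *Adgre1* at 22.0 ± 9.16.

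**Figure D2:**
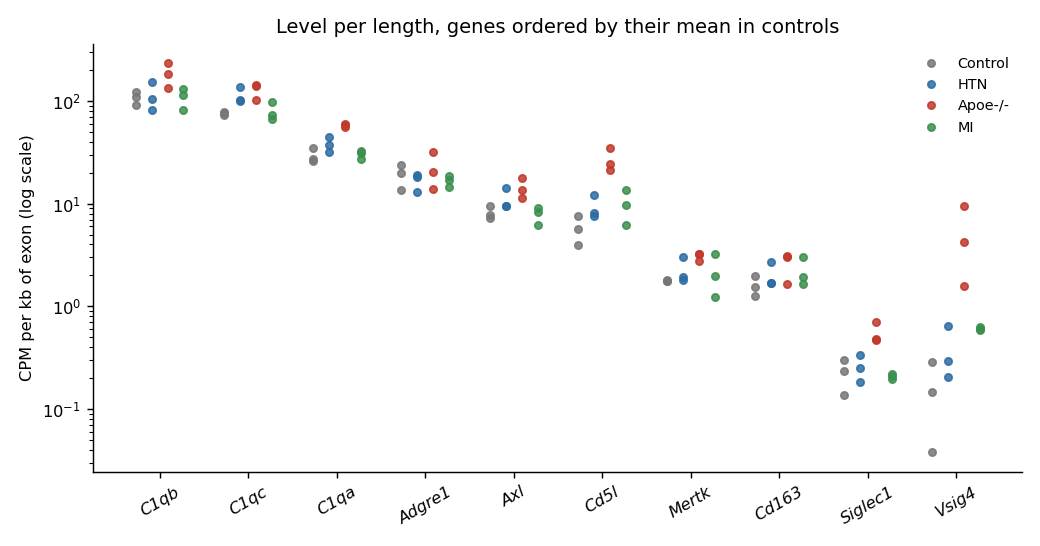
Level per kb of exon (vertical axis, CPM per kb, log scale) of each gene in every library, ordered by the control mean and colored by group. *C1qb* leads at 107 CPM per kb in controls and *Vsig4* is last at 0.157, and the Apoe-/- points of *Vsig4* and *Cd5l* stand apart from the rest.

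Across the 10 genes, Apoe-/- mice had the highest group mean for all 10, and controls had the lowest for 7 and MI for 3. The genes were chosen on their levels by group, and the share of all genes with this order was not counted, so nothing is read from it. In Apoe-/- mice 10 of the 10 were above controls in the fit (51.9% of all genes were), with a median log2 fold change of 0.80 (0.20 to 4.89), and for 8 the libraries did not overlap, the exceptions being *Cd163* and *Adgre1*. Of all genes tested, 5.06% were higher without overlap, and the median log2 fold change was 0.01. At an adjusted p under 0.05 in edgeR's quasi-likelihood test 3 of the 10 were counted (*C1qa*, *Vsig4* and *Cd5l*), all of them higher, where 0.144% of all genes, or 23, were counted in either direction and 0.106% higher, and since the genes were chosen on this contrast nothing is read from that count. It was 0 without control replicate 2, control replicate 3 or Apoe-/- replicate 3, 1 without control replicate 4 (*Cd5l*) and 2 without Apoe-/- replicate 4 (*Vsig4* and *Cd5l*). Fitted to Apoe-/- and control libraries alone it was 0 as well, whereas DESeq2 counted 4, with *C1qc* added.

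In HTN, 9 of the 10 were above controls in the fit (48.1% of all genes were), with a median log2 fold change of 0.35 (-0.20 to 1.17). For 3 (*C1qc*, *Cd5l* and *Axl*) the libraries were higher without overlap, as for 9.02% of all genes. HTN replicate 2 was the highest library of its group for 9 of the 10, and without it 7 were above controls, with a median of 0.16. Without control replicate 3 the number was 7 as well. In MI, 7 of the 10 were above controls (50.0% of all genes were), with a median of 0.05 (-0.20 to 1.84), and only *Vsig4* was higher without overlap, against 4.27% of all genes. MI replicate 4 was the lowest of its group for 9 of the 10. For the ranks of HTN replicate 2 and MI replicate 4 the share of all genes was not counted. The number above controls in MI was 4 without MI replicate 3, 5 without MI replicate 2 or control replicate 3, and 8 without MI replicate 4 or control replicate 4, and the median was between -0.04 and 0.15. No gene of the table passed the adjusted threshold in HTN or MI (0.00% in each) by edgeR's quasi-likelihood test, with 594 and 448 genes at an unadjusted p under 0.05. DESeq2 counted 0 genes in HTN and 1 in MI, as did edgeR's likelihood-ratio test. The 3 comparisons share their controls, so that these values are not independent of each other.

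**Figure D3:**
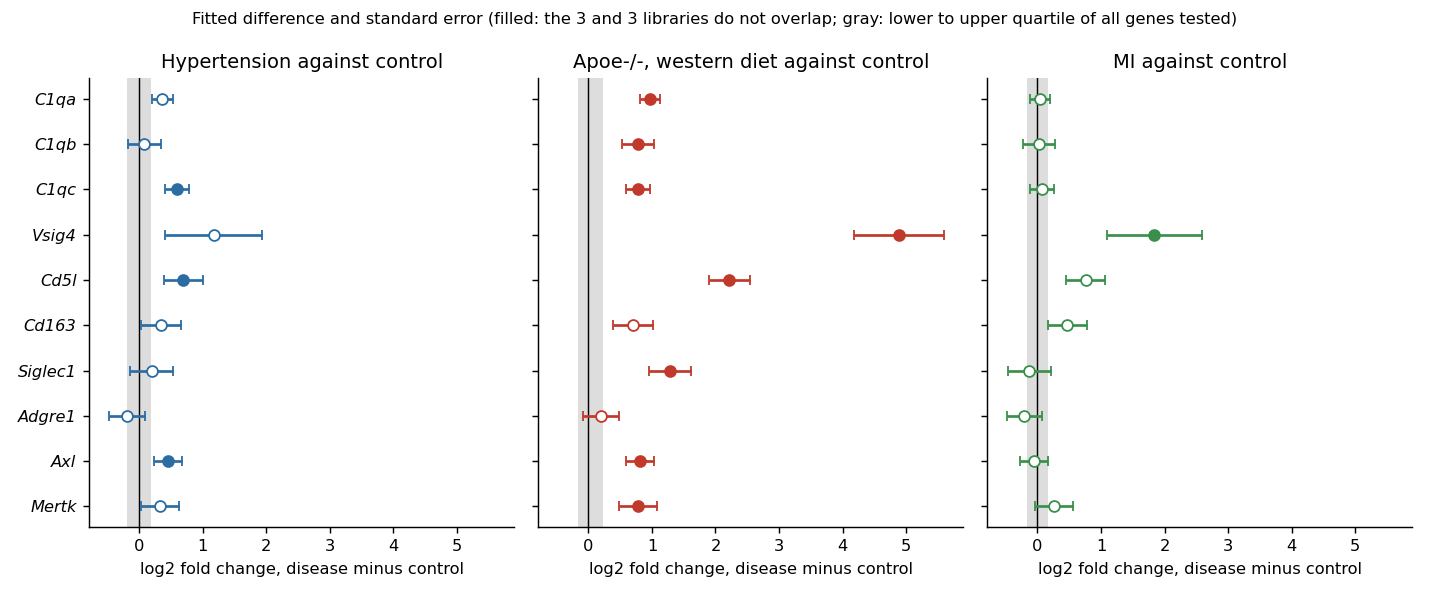
Fitted log2 fold change against controls (horizontal axis) with its SE for the 10 genes in HTN, Apoe-/- and MI mice; filled points mark genes whose 3 disease and 3 control libraries do not overlap, and the gray band runs from the lower to the upper quartile of all genes tested. There are 3 filled points in HTN, 8 in Apoe-/- and 1 in MI, with *Vsig4* the farthest right in each.

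Over the 12 libraries the correlation was above 0 in every pair among 9 of the 10 genes, weakly in some, and it was less even for pairs with *Adgre1*. Among the 36 pairs without *Adgre1*, Pearson's r of log2 CPM was between 0.39 and 0.91 with a median of 0.73, the highest for *Vsig4* and *Cd5l*. With the group means removed, so that only differences between mice of a group remain, r was between 0.07 and 0.85, above 0 in 36 of 36. The 9 pairs with *Adgre1* had r between -0.06 and 0.58, and between -0.38 and 0.75 with group means removed, above 0 in 5 of 9. The highest of these was with *Axl*. These values describe 12 libraries that share 4 groups and the mixture of cells in each library, and no p is attached to them. The genes were chosen on their levels by group, and the values for other pairs of genes were not computed.

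**Figure D4:**
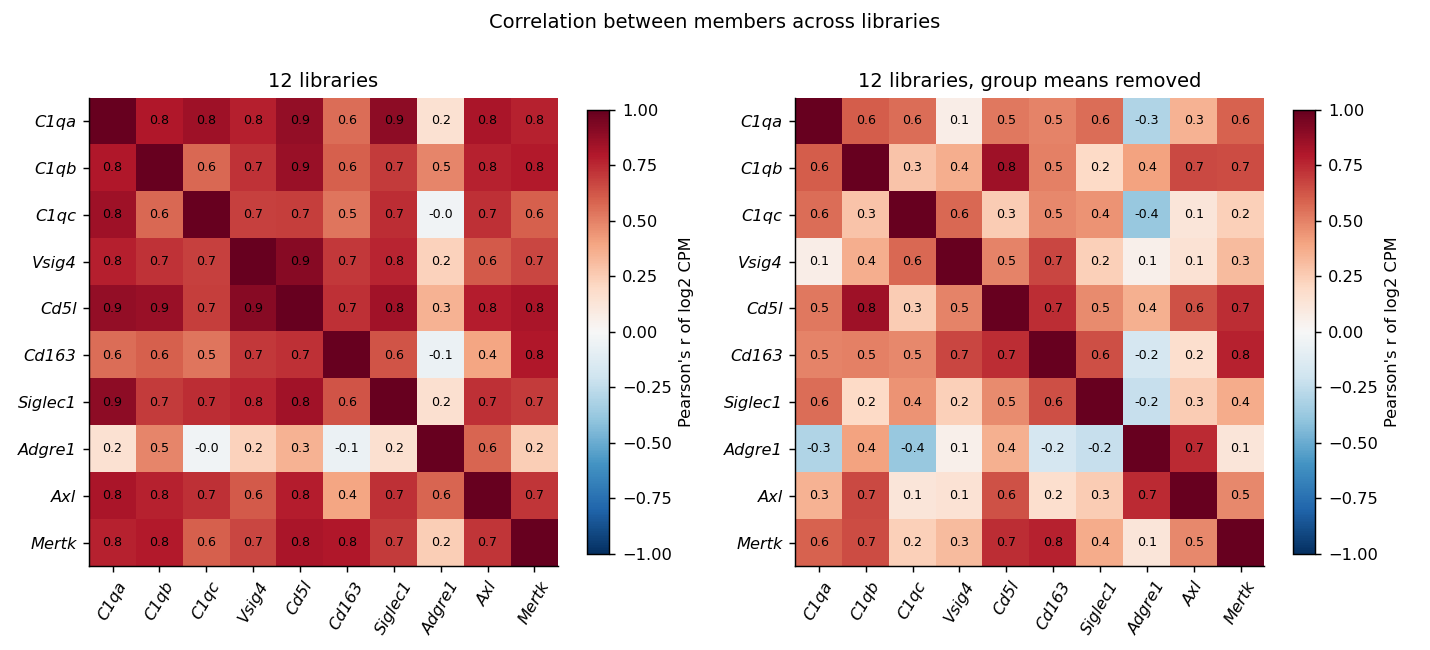
Pearson's r of log2 CPM between each pair of the 10 genes over 12 libraries (left) and after removal of group means (right), on a color scale from -1 to 1. The row of *Adgre1* is the palest, with r of at most 0.58 on the left.

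Genes from other parts of macrophage biology were examined in the same fit, in 5 lists that exclude the 10 genes and hold 130 genes, of which 110 were tested. *Abca1*, the transporter that exports cholesterol from cells and a classical target of liver X receptors, was the 1 gene to pass in Apoe-/- mice. It rose from 8.52 ± 1.21 CPM in controls to 29.0 ± 2.89 (SD, n = 3), a log2 fold change of 1.77 ± 0.22 (SE; adjusted p = 0.00830, edgeR's quasi-likelihood test). This call was lost without control replicate 2 or control replicate 3. In HTN and MI no list gene passed by edgeR's quasi-likelihood or likelihood-ratio test or by DESeq2, with 6 of 110 (5.45%) at an unadjusted p under 0.05 in each, where 3.71% of all genes in HTN and 2.80% in MI were. In Apoe-/- mice it was 17 (15.5%), where 5.97% of all genes (955) were. For Apoe-/- mice the likelihood-ratio test counted *Gpnmb*, *Itgb5* and *Timd4* beside *Abca1*, and DESeq2 counted these and *C5ar2*.

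Of 31 core macrophage genes tested in Apoe-/- mice, 1 passed upward (*Abca1*) and 0 downward, and the median log2 fold change was 0.08, where all genes had 0.01. *Cd68*, a lysosomal glycoprotein of macrophages, was at 279.5 ± 43.3 CPM in controls and 279.6 ± 28.2 in Apoe-/- mice, and *Csf1r*, the receptor for the growth factor that maintains macrophages, at 101 ± 26.3 and 117 ± 45.4. *Cd68* and *Csf1r* were chosen after their values were seen, and they do not stand for the list. *Cd68* had the smallest difference of the core genes with a mean of at least 1 CPM. Of the 31, 18 were above controls in the fit and 13 below. At an unadjusted p under 0.05 in edgeR's quasi-likelihood test there were 5 (16.1%, where 5.97% of all genes were), 3 of them higher. Libraries did not overlap for 2 genes upward and 3 downward, where 5.06% of all genes were higher without overlap. *Gpnmb*, a glycoprotein of lipid-loaded macrophages, was at 36.2 ± 3.21 CPM in controls and 5.60 ± 5.43 in Apoe-/- mice, and did not pass (adjusted p = 0.190, edgeR). The summed level of the 32 core genes was 3469 to 4216 CPM in controls and 3885 to 4481 in Apoe-/- mice, and 3553 to 4482 in HTN and 3201 to 4057 in MI.

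Of 13 macrophage transcription factors 0 passed in edgeR's quasi-likelihood test, with a median of 0.13 in Apoe-/- mice. At an unadjusted p under 0.05 in that test there were 4 (30.8%, where 5.97% of all genes were). Of these 4, 3 were higher in Apoe-/- mice. Libraries did not overlap for 3 of the 13 upward and 2 downward, where 5.06% of all genes were higher without overlap. *Klf4*, a factor of monocytes and macrophages, was not among the 4. Its log2 fold change was 0.76 ± 0.49 (adjusted p = 0.873, edgeR), and its libraries overlapped with controls. Of 22 complement genes tested 0 passed (3 unadjusted, 13.6%), with a median of 0.09. The largest differences were in *C5ar2*, a receptor for C5a (-1.25 ± 0.33, adjusted p = 0.344, edgeR), and in *C4b*, a component of the classical pathway downstream of C1q (1.10 ± 0.32, adjusted p = 0.467, edgeR).

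Of 26 engulfment genes tested 0 passed (3 unadjusted, 11.5%), with a median of 0.01. *Timd4*, a receptor for phosphatidylserine on dying cells that marks long-lived resident macrophages, was at 0.643 ± 0.338 CPM in controls, 1.22 ± 0.776 in HTN, 3.26 ± 1.14 in Apoe-/- and 1.22 ± 0.144 in MI. Its Apoe-/- libraries (2.04 to 4.29 CPM) did not overlap with controls (0.271 to 0.931 CPM), at a log2 fold change of 2.30 ± 0.50, and it missed the threshold (adjusted p = 0.167, edgeR). *Itgb5*, an integrin subunit in the uptake of dying cells, had a log2 fold change of 0.88 ± 0.20 (adjusted p = 0.204, edgeR). Of 18 relatives of the 10 genes 0 passed (2 unadjusted, 11.1%), with a median of -0.18. The largest differences were in *Cd5* (0.83 ± 0.36, adjusted p = 0.823, edgeR) and *Adgre4* (0.71 ± 0.25, adjusted p = 0.681, edgeR).

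In HTN and MI the medians of the 5 lists were between -0.14 and -0.01. Among genes with a mean of at least 1 CPM, the largest differences in HTN were in *C4b* (0.79 ± 0.32), *C5ar1* (-0.70 ± 0.39), *Cd36*, a scavenger receptor (0.70 ± 0.21), and *Gpnmb* (-0.69 ± 0.56), with adjusted p = 0.951 for each in edgeR. In MI they were in *C4b* (0.79 ± 0.33), *Siglech* (-0.70 ± 0.22), *Id3* (-0.69 ± 0.43) and *Cd22* (-0.66 ± 0.23), with adjusted p = 1.00 for each in edgeR.

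**Figure D5:**
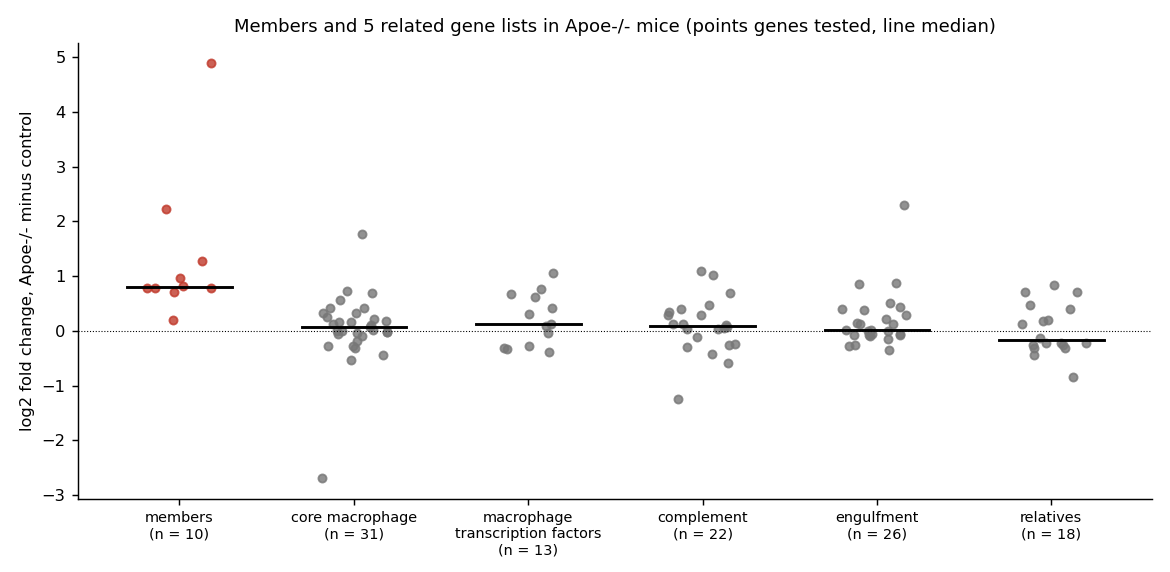
Log2 fold change between Apoe-/- and control mice (vertical axis) for the 10 genes and for the tested genes of 5 related lists; each point is a gene and each line the median. The median is 0.80 for the 10 genes, which were chosen on these values, and between -0.18 and 0.13 for the lists.

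Summed markers of some other marrow cells did not overlap with controls either. No test was attached to this, and with 3 libraries against 3 some lists can separate without a difference between groups. In Apoe-/- mice the summed levels of 6 plasma cell genes (1385 to 1722 CPM, controls 937 to 1257) and of 6 plasmacytoid dendritic cell genes (394 to 428, controls 291 to 335) were above controls in every library. In HTN the 14 neutrophil genes were below controls (37645 to 54761 CPM, controls 59574 to 81970), and in MI so were 9 B cell genes (218 to 484, controls 508 to 755) and the plasmacytoid genes (175 to 278). The lists for endothelial cells, monocytes, erythroid cells, T and NK cells, megakaryocytes and platelets, and stromal cells overlapped with controls in all 3 comparisons. With the log2 summed monocyte genes as a covariate the median log2 fold change of the 10 genes was 0.87 in Apoe-/- mice, 0.43 in HTN and 0.07 in MI, and with the core macrophage genes it was 0.69, 0.31 and 0.06. Whether either sum follows the amount of these cells in a library was not tested, so these medians are not values at an equal amount of macrophages or monocytes. The part of the other lists in the levels of the 10 genes was not tested. A score of the 10 genes, the mean of their standardized log2 CPM, had Pearson's r of 0.63 and Spearman's rho of 0.69 with the log2 summed level of the core macrophage list over the 12 libraries, r of 0.68 without the 2 libraries farthest from the median score and 0.74 with group means removed. Of the lists of other cells, only the stromal list had a higher r than the core macrophage list, and only with group means removed. With group means removed r was 0.83 for the stromal list, 0.54 for neutrophils, 0.52 for erythroid cells and 0.28 for monocytes, and without that step it was 0.42, -0.23, 0.32 and -0.08. For the plasmacytoid list r was 0.46, and -0.55 with group means removed, and for the T and NK list -0.44 and 0.09. *Clec4f*, a marker of Kupffer cells, was at 0 to 0.108 CPM.

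The genes whose pattern over the 12 libraries was most like the score of the 10 genes, among all others tested, were *Mrc1* (r = 0.94), *Kcna2* (0.93), *Abcc3* (0.93), *Fcna* (0.92) and *Itgad* (0.91). *Mrc1*, the mannose receptor of macrophages, was at 26.8 ± 3.21 CPM in controls, 24.2 to 41.9 in HTN, 39.5 ± 3.39 in Apoe-/- and 27.2 ± 3.51 in MI. *Fcna*, the lectin ficolin A, which starts complement activation, was at 32.1 ± 7.06, 51.7 ± 15.7, 76.0 ± 22.7 and 42.4 ± 9.87 CPM in the same order. *Itgad*, an integrin subunit of macrophages, was at 2.73 ± 0.629 CPM in controls and 5.92 ± 1.29 in Apoe-/- mice, and was also the gene most like *Cd5l* (r = 0.94). *Kcna2*, a subunit of a voltage-gated potassium channel and the gene most like *C1qa* (0.96) and *Siglec1* (0.93), was at 1.04 ± 0.302 and 3.19 ± 0.257 CPM.

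For the remaining genes the closest were *Abcc3* to *C1qb* (r = 0.92), *Gdf15* to *C1qc* (0.91), *Ccdc148* to *Vsig4* (0.92), *Cp* to *Cd163* (0.88), *Slc22a23* to *Axl* (0.93) and *Serinc3* to *Mertk* (0.90). *Adgre1* was closest to *Csf1r* (0.94), which overlapped between all groups. *Ccdc148* was at 0.435 ± 0.230 CPM in controls and 3.76 ± 0.714 in Apoe-/- mice, and *Gdf15*, a secreted stress cytokine, at 13.8 ± 1.80 in controls, 23.3 ± 7.85 in HTN, 26.6 ± 7.53 in Apoe-/- and 14.2 ± 6.69 in MI. These genes were picked as the highest among all tested genes over 12 libraries in 4 groups, and their r is a description.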

How the data were processed

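RNA of sorted marrow cells was sequenced by the authors, 1 strand-specific library for each of 12 mice. The deposited values are raw counts of reads for each Ensembl gene. The authors had aligned single-end reads to GRCm38.p6 with STAR 2.7.3a and counted them with its GeneCounts option on Ensembl release 98. Which strand column was taken is not given in the sources used here. Alignment and counting are thus part of the values, and normalization is not. Total counts had a median of 19419915, and 3 counts corresponded to 0.116 to 0.176 CPM. Positions, exon lengths and symbols came from GENCODE M21 on GRCm38, which held 55240 of the 55421 genes.

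Counts were analyzed with edgeR 4.0.16 in R 4.3.3 (filterByExpr, TMM, 1 coefficient for each of 4 groups over 12 libraries, glmQLFit and glmQLFTest, two-sided tests), with Benjamini-Hochberg adjustment of p-values over 15999 genes. P-values measure the spread between single mice. CPM were TMM-scaled, and log2 CPM had a prior count of 2. Standard errors are the log2 fold change divided by the root of the F statistic. Code was tested on simulated data. Groups came from the labels, and the labels' replicate numbers were not treated as pairs, since deviations of same-numbered libraries from their group means correlated with r from -0.28 to 0.30.

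The 10 genes, the lists and the motifs were chosen with earlier results of these data known. Lists of core macrophage, transcription factor, complement, engulfment and related genes were tested, and marker lists of endothelial cells, neutrophils, monocytes, erythroid cells, B cells, plasma cells, T and NK cells, megakaryocytes and platelets, stromal cells and plasmacytoid dendritic cells were summed. *Csf1r* and *Klf4* are also in the monocyte list, *Stab2* in the endothelial list, *Siglech* in the plasmacytoid list and *Tyro3* in both the engulfment list and the relatives. A list of 6 housekeeping genes overlapped with controls in each comparison. Named genes are the 10, list genes that passed, otherwise the 2 with the largest absolute log2 fold change in a list at a mean of at least 1 CPM (fewer are printed in HTN and MI, and 1 gene is not reported here), the 5 most like the score, the 1 most like each gene, *Apoe*, *Gas6*, *Pros1* and *Tyro3*. Markers named for the check of cell types, *Gpnmb*, *Cd68* and *Csf1r* in Apoe-/- mice, and *Clec4f* were named beyond this rule after their values were seen. Alternatives were the likelihood-ratio test that the study names, DESeq2 1.42.0, RLE size factors, other count filters, only the 2 groups compared, the replicate block, immunoglobulin and hemoglobin genes left out, core macrophage or monocyte levels as a covariate, and each library left out in turn.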

Additional observations from a re-analysis of the deposited data

How the results depend on the processing

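In Apoe-/- mice the count of 23 genes became 81 with the likelihood-ratio test, 81 with DESeq2, 432 with no filter beyond 1 count, 12 and 13 with the core macrophage or monocyte level as a covariate, 4 with only the 2 groups compared, and 2 to 34 with 1 library left out (2 without control replicate 3, 3 without control replicate 2, 6 without Apoe-/- replicate 3 and 11 without control replicate 4). With the replicate block it was 7, none of them among the 10 genes. Of the list genes, 1 became 4, 5, 9 and 2 with the likelihood-ratio test, DESeq2, no filter and the core macrophage covariate, and 0 to 2 with 1 library left out. Without a filter 170 genes passed in HTN and 130 in MI. In MI 1 gene passed with the likelihood-ratio test, with DESeq2 and with only the 2 groups compared. The replicate block changed no other count by over 1.5 times. Of the 12 libraries, 4 correlated best with a library of their own number.

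The median log2 fold change of the 10 genes was 0.69 to 0.97 in Apoe-/- mice, 0.16 to 0.50 in HTN and -0.04 to 0.15 in MI over 16 alternatives. In Apoe-/- mice only *Adgre1* changed sign, in 2 of 16. *Vsig4* could not be fitted with at least 10 counts in every library, nor in HTN with only the 2 groups compared. It held 1 to 11 counts per control library, so its fold change is the least precise. With 3 mice a group, 1 library could decide whether a gene passed, and a difference that missed the threshold is not shown to be absent.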
